A study of Mus musculus with 8 samples.

Results

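The genes that carry the insulin signal from its receptor to AKT were examined as mRNA in liver of db/db mice, given either a control or the AF1 peptide. The 10 genes were taken by symbol from the 21532 genes of the table, and each of them was found: Insr, Irs1, Irs2, Pik3r1, Pik3ca, Pdpk1, Akt1, Akt2, Gsk3b and Ptpn1. By the study's methods, male db/db mice received 5 mg/kg body weight of either peptide by retro-orbital injection, 2 times per week for 5 weeks, starting at 8 weeks of age. All mice, controls included, lack a working leptin receptor and are therefore obese and diabetic, so the comparison was made within diabetic livers and held no lean mice. RNA was taken from frozen liver, with 1 library per mouse and 4 mice per group, and the feeding state of the mice at collection of these livers was not given in the sources used here. AF1 peptide is derived from the N-terminal part of estrogen receptor α by deleting segments of it, with a FITC-labelled TAT sequence added in front. It was designed to bind the IRS1 protein. The mRNA comparison asks whether the genes of the pathway that the peptide targets differed in transcript level between the groups. Protein and phosphorylation of IRS1 and AKT were not measured in these libraries.

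Insulin binds the insulin receptor at the hepatocyte surface, and the activated receptor phosphorylates the IRS proteins on tyrosine. The phosphorylated IRS proteins recruit phosphoinositide 3-kinase, whose lipid product brings AKT to the membrane to be phosphorylated by PDPK1. In liver, active AKT inhibits GSK3B, which releases glycogen synthesis, and keeps FOXO1 out of the nucleus, which lowers transcription of gluconeogenic genes. PTPN1 removes phosphate from the receptor and thereby turns the signal off.

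The libraries held 35260283 to 45117528 reads in the control group and 23031880 to 43978158 in the AF1 group. AF1 peptide replicate 2 had the fewest reads. A different library, AF1 peptide replicate 1, with 35099306 reads, stood apart in composition. In it, the 13 mitochondrial genes took 20.8% of reads, against 34.3% to 37.8% in the other AF1 mice and 22.4% to 34.3% in the controls. The summed level of 8 hepatocyte markers was 1.83e+06 normalized counts in that library, 2.15e+06 to 2.59e+06 in the other AF1 mice and 2.46e+06 to 2.64e+06 in the controls, so every library carried the markers of its labelled tissue. The 6 Kupffer cell markers, of which Adgre1 was called lower in the AF1 group, summed to 1946 normalized counts in that library, 4851 to 4941 in the other AF1 mice and 4341 to 5473 in the controls. Of the 6 stellate cell markers 1 was called lower, and of the endothelial, biliary and blood cell markers none was. The stellate, biliary and blood cell sums were also lowest in AF1 replicate 1, at 8235, 803 and 27159 normalized counts. The lowest sums in the other AF1 mice were 8981, 1246 and 49192, and in the controls 9125, 1193 and 34204. Its endothelial sum, 3965, was above that of the lowest other AF1 mouse, 3807. The 10 genes, and the other named genes whose difference rests on AF1 replicate 1, are given with and without it. In whole liver, fewer cells of a type and less RNA per cell cannot be told apart.

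None of the 10 genes passed the test between the groups. In a limma fit to log2(normalized count + 1) over 15989 genes, 0 of 10 passed an unadjusted p of 0.05, beside 6.19% of all genes tested, and no gene of the table passed after Benjamini-Hochberg adjustment. The 990 genes called were 506 higher and 484 lower in the AF1 group, a split that was 129 to 769 when libraries were scaled to equal totals. With mitochondrial genes left out of the totals the split was 438 to 467, and with TMM factors it was 477 to 527. Of the 10 genes, 4 were higher on average in the AF1 group, compared with 48.2% of all genes. Their median log2 fold change, AF1 peptide minus control, was -0.065, and that of all genes was -0.0083. The genes were covered by 54 to 3122 reads per mouse, with Pdpk1 the thinnest.

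**Figure D1:**
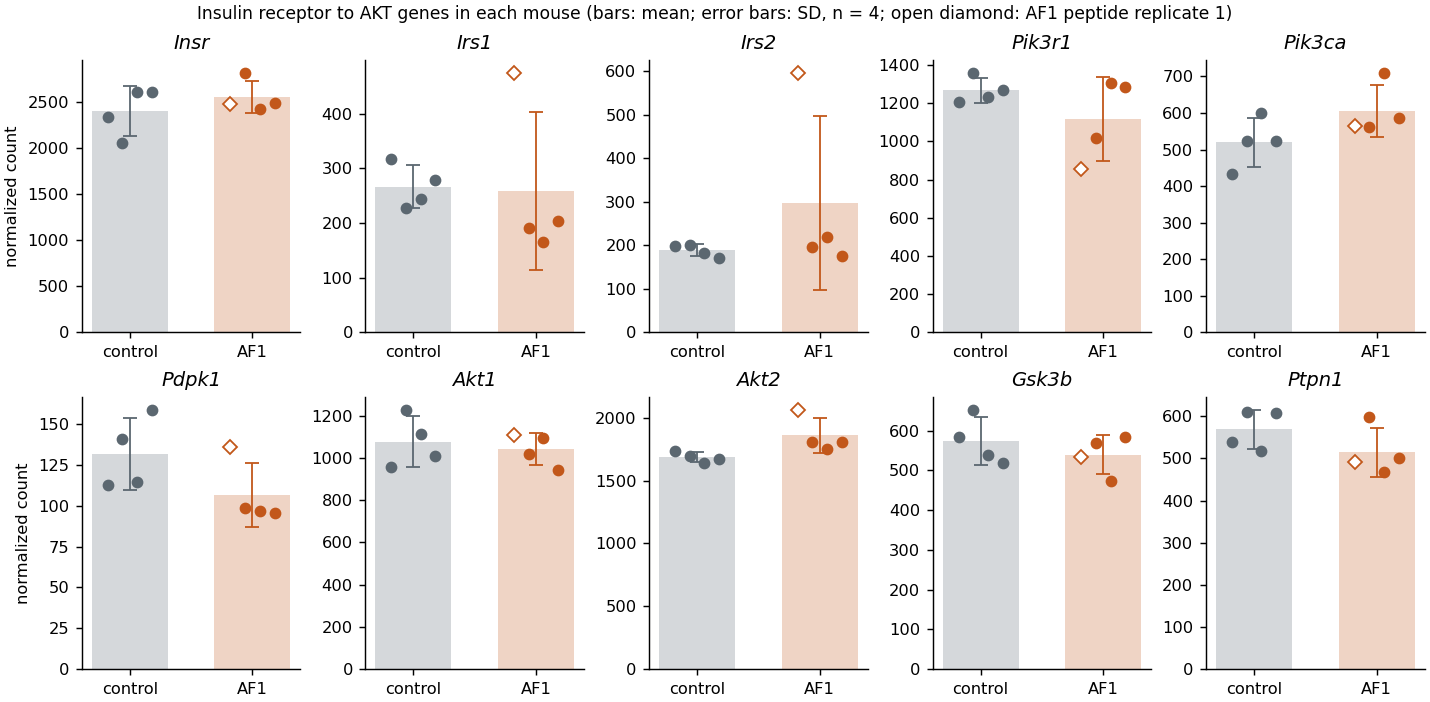
Normalized counts (y axis, arbitrary units on a scale common to all libraries) of the 10 genes in each control and AF1 peptide mouse. Points are mice, bars are group means and error bars are SD (n = 4). The open diamond marks AF1 peptide replicate 1, which holds the highest Irs1 and Irs2 values of all 8 mice, 474 and 596.

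At the top of the pathway, Insr encodes the insulin receptor itself. Insr was at 2335, 2054, 2617 and 2615 normalized counts in the 4 control mice and at 2481, 2818, 2433 and 2491 in the 4 AF1 mice. The groups overlapped, and the single high AF1 mouse was replicate 2. The means were 2405 ± 269 and 2556 ± 177 (SD, n = 4), a log2 difference of 0.09 (SE 0.11, 95% confidence interval -0.14 to 0.33, adjusted p = 0.860 by limma). Without AF1 replicate 1 the difference was 0.11. In fold, the interval ran from 0.906 to 1.25.

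Ptpn1 encodes the tyrosine phosphatase that acts on the receptor. It was at 539.8, 611, 518 and 607 in the controls and at 493, 599, 467 and 500.5 in the AF1 mice. In the AF1 group, 3 of 4 mice lay below every control, and replicate 2 lay within the control range. The log2 difference was -0.15 (SE 0.11, interval -0.39 to 0.10, unadjusted p = 0.215 and adjusted p = 0.801 by limma), which did not pass the test.

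Of the 10 genes, the adaptors Irs1 and Irs2 were those in which the treated mice differed most among themselves. IRS1 and IRS2 are the main docking proteins of the receptor in liver, and Irs2 transcription is known to be repressed by insulin through FOXO1, as is that of Igfbp1, a secreted binding protein of insulin-like growth factors. The 150 bases before the annotated start of these 3 genes are shown because each holds the letters TGTTTTG, the core of the insulin response element, or their complement CAAAACA. The sequences are from RefSeq on GRCm38.p6, written 5′ to 3′ in the direction of the gene, with the matched letters in capitals.
Irs1, chr1:82291440-82291589, minus strand: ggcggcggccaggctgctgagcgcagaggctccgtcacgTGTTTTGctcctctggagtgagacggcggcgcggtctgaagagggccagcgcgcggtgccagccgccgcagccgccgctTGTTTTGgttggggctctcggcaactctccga
Irs2, chr8:11008930-11009079, minus strand: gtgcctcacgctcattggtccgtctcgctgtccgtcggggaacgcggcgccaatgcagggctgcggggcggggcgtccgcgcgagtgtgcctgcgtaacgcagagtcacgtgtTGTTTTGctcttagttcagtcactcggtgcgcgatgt
Igfbp1, chr11:7197637-7197786, plus strand: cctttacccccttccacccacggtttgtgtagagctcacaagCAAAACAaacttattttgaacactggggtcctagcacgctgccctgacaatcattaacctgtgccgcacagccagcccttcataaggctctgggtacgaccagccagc
Irs1 held the letters 2 times, at 111 to 105 and at 32 to 26 bases before the start, and Irs2 held them 1 time, at 37 to 31. Igfbp1 held them 1 time on the opposite strand, at 108 to 102. In windows from 250 bases before to 50 after each start, searched on both strands, 2064 of 32851 promoters held the letters, or 6.28%. Promoters, 15 in all, were listed for 9 of the 10 genes, all but Insr, and only those of Irs1 and Irs2 held a match. Among the insulin-responsive transcripts listed further below that had a promoter, 2 of 7 repressed ones, G6pc and Igfbp1, and 1 of 7 induced ones held the letters. A match describes the letters and not whether a factor binds there.

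Irs1 was at 316, 227, 243 and 278 normalized counts in the control mice. In the AF1 mice it was at 474, 190.0, 166 and 203. Replicate 1 was thus above every control, at 1.78 times their mean, while the other 3 AF1 mice were all below every control. The group means were 266 ± 39.5 and 258 ± 145 (SD, n = 4), and the coefficient of variation was 14.9% in the controls and 56.1% in the AF1 mice. The log2 difference was -0.17 (SE 0.29, interval -0.81 to 0.47, adjusted p = 0.913 by limma). Without replicate 1, the AF1 mean was 186 ± 19.0 (SD, n = 3) and the log2 difference was -0.51 (SE 0.14, interval -0.82 to -0.19), a fold of 0.703 with an unadjusted p of 0.00442 and an adjusted p of 0.452 by limma. On the recovered reads of all 8 mice, the difference was -0.04 by edgeR (unadjusted p = 0.897). In the limma fit of 7 mice, 5.48% of all genes were lower at an unadjusted p of 0.05. The size of the Irs1 difference and its call therefore rested on 1 library.

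Irs2 was at 199, 201, 183 and 172 in the control mice, a narrow range with a coefficient of variation of 7.33%. It was at 596, 197, 219.9 and 176 in the AF1 mice. Replicate 1 was at 3.16 times the control mean, replicate 3 was slightly above the highest control, and the other 2 lay within the control range. The group means were 188 ± 13.8 and 297 ± 200.02 (SD, n = 4). The log2 difference was 0.46 (SE 0.32, interval -0.25 to 1.18, adjusted p = 0.789 by limma), and without replicate 1 it was 0.07 (interval -0.22 to 0.35). On the recovered reads of all 8 mice, edgeR gave 0.67 (unadjusted p = 0.0817) and DESeq2 0.66 (unadjusted p = 0.0559).

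The SD of Irs1 among AF1 mice on the log2 scale was larger than that of 95.3% of genes of like level, and the SD of Irs2 larger than that of 96.9%. Over the 8 mice, the log2 levels of Irs1 and Irs2 had a Pearson r of 0.713, and over the 7 mice without AF1 replicate 1 the r was -0.457, so r was positive only with that mouse. These correlations are descriptions over mice of both groups and carry no p. Reads may be shared with overlapping genes, since the use of strand in counting was not stated. Of the exon bases of Irs1, 30.9% lie under Gm9747 on the opposite strand, which was not analysed here. Of those of Irs2, 2.56% lie under 9530052E02Rik, itself at 3.296, 4.92, 2.16 and 3.35 normalized counts in the controls and at 14.9, 1.83, 9.06 and 3.67 in the AF1 mice, and its part in the Irs2 values was not tested.

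Phosphoinositide 3-kinase is a dimer of a regulatory and a catalytic subunit. Pik3r1, the regulatory p85α gene, was at 1207, 1358, 1234 and 1269.6 in the controls and at 853, 1016, 1308 and 1287 in the AF1 mice. AF1 replicates 1 and 2 lay below every control and the others within the control range. Its log2 difference was -0.20 (SE 0.14, interval -0.51 to 0.10, adjusted p = 0.783 by limma) and -0.08 without replicate 1. Pik3ca, the catalytic p110α gene, was at 433, 523, 599 and 524 in the controls and at 566, 561, 709 and 586 in the AF1 mice. The groups overlapped through 1 high control, replicate 3. The log2 difference was 0.22 (SE 0.13, interval -0.05 to 0.50, unadjusted p = 0.105 and adjusted p = 0.766 by limma), and without control replicate 3 it was 0.29 with an unadjusted p of 0.0494.

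Pdpk1 encodes the kinase that phosphorylates AKT in its activation loop, and it had the lowest level of the 10 genes. It was at 113, 141, 115 and 159 in the controls and at 136, 98.6, 97.2 and 95.5 in the AF1 mice. AF1 replicates 2 to 4 lay close to each other and below every control, while replicate 1 lay inside the control range. The log2 difference was -0.30 (SE 0.17, interval -0.69 to 0.08, adjusted p = 0.772 by limma). Without replicate 1 it was -0.42 (interval -0.77 to -0.07, unadjusted p = 0.0228, adjusted p = 0.476). The fewest reads behind a value were 54, in AF1 replicate 2, for which counting alone gives an error of 13.6%.

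Akt1 and Akt2 encode the main AKT kinases of liver, of which AKT2 is the isoform most tied to glucose metabolism. Akt1 was at 955, 1229, 1116 and 1009 in the controls and at 1109.5, 1021, 1092 and 945 in the AF1 mice. The 2 sets of values lay over each other, with a log2 difference of -0.04 (SE 0.11, interval -0.28 to 0.19, adjusted p = 0.940 by limma). Akt2 was at 1739.6, 1699.7, 1639.8 and 1672 in the controls and at 2066, 1812, 1755 and 1809 in the AF1 mice. It was the only one of the 10 genes whose groups did not overlap, each AF1 mouse lying above each control, as was the case for 2.05% of all genes in this direction and for 3.9% in either. The means were 1688 ± 42.4 and 1860.4 ± 139.6 (SD, n = 4), 1.10-fold, with a log2 difference of 0.14 (SE 0.09, interval -0.05 to 0.33, unadjusted p = 0.142 and adjusted p = 0.777 by limma). The control mice were unusually alike, with an SD smaller than that of all but 2.29% of genes of like level, and with the gene's own variance in place of the moderated one the unadjusted p was 0.0474. The separation was lost when libraries were scaled to equal totals. Akt2 shares 9.76% of its 50-base words with its pseudogene Akt2-ps, whose log2 difference was 0.09 (unadjusted p = 0.462), so part of its reads cannot be assigned with certainty.

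Gsk3b, the kinase that AKT switches off to allow glycogen synthesis, was at 584, 653, 539 and 518 in the controls. In the AF1 mice it was at 535, 568, 472 and 584. The ranges overlapped and the log2 difference was -0.09 (SE 0.11, interval -0.33 to 0.16, adjusted p = 0.878 by limma).

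**Figure D2:**
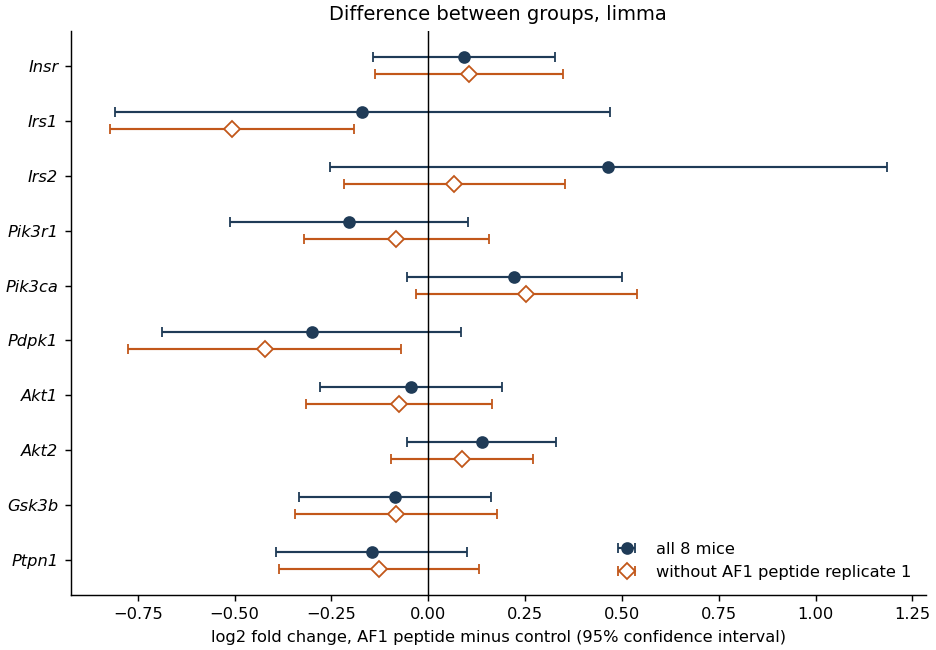
Log2 fold change, AF1 peptide minus control, of the 10 genes by limma, with 95% confidence intervals, in all 8 mice (filled circles) and without AF1 peptide replicate 1 (open diamonds). With all mice each interval includes 0, and without replicate 1 those of Irs1, -0.82 to -0.19, and Pdpk1, -0.77 to -0.07, do not.

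Across the 10 genes, the intervals were widest for Irs2 and Irs1 and narrowest for Akt2. Leaving out AF1 replicate 1 gave 2 genes past an unadjusted p of 0.05, Irs1 and Pdpk1, both lower in the AF1 group, and 10.1% of all genes passed in that fit. The other 8 genes had intervals that included 0 in both fits. Without that mouse, the log2 difference was -0.13 for Ptpn1, 0.25 for Pik3ca, -0.08 for Akt1, 0.09 for Akt2 and -0.08 for Gsk3b.

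Ratios of partner genes within a mouse do not depend on the scaling of the library, and 4 of them were compared. The Irs1 to Irs2 ratio was 1.59, 1.13, 1.33 and 1.62 in the controls and 0.795, 0.963, 0.753 and 1.15 in the AF1 mice. Of the AF1 mice, 3, replicate 1 among them, lay below every control, and replicate 4 lay at the bottom of the control range. The means were 1.42 ± 0.231 and 0.915 ± 0.181 (SD, n = 4), a log2 difference of -0.64 with p = 0.0571 by a two-sided exact permutation test and 0.114 after adjustment over the 4 ratios, where 0.0286 is the smallest p that 4 against 4 mice can give. Leaving out any 1 mouse kept the log2 difference between -0.75 and -0.55, and without AF1 replicate 4 the unadjusted exact permutation p was 0.0286.

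The ratio of the regulatory to the catalytic subunit, Pik3r1 to Pik3ca, was 2.79, 2.60, 2.06 and 2.42 in the controls and 1.51, 1.81, 1.84 and 2.196 in the AF1 mice. Again 3 AF1 mice were below every control. The means were 2.47 ± 0.310 and 1.84 ± 0.281 (SD, n = 4), a log2 difference of -0.43 (exact permutation p = 0.0571, adjusted 0.114). The Insr to Ptpn1 ratio had means of 4.26 ± 0.693 and 4.98 ± 0.209 (log2 difference 0.24, exact permutation p = 0.114, adjusted 0.152). Without control replicate 3 its log2 difference was 0.33 with an unadjusted exact permutation p of 0.0286. The Akt1 to Akt2 ratio was 0.549, 0.723, 0.680 and 0.604 in the controls and 0.537, 0.564, 0.623 and 0.522 in the AF1 mice (log2 difference -0.18, exact permutation p = 0.171, adjusted 0.171). None of the 4 ratios passed the test with all mice.

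**Figure D3:**
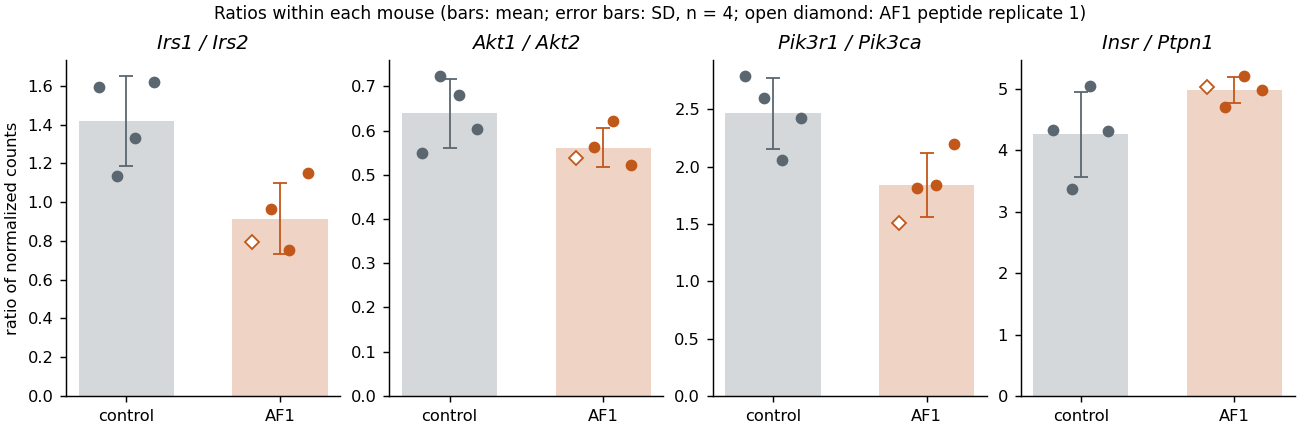
Ratios of normalized counts of partner genes within each mouse (y axes, no unit), for control and AF1 peptide mice. Points are mice, bars are means, error bars are SD (n = 4) and the open diamond is AF1 peptide replicate 1. The Irs1 to Irs2 ratio was 1.13 to 1.62 in the controls and 0.753 to 1.15 in the AF1 mice.

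Levels were compared between genes as normalized counts per kilobase of annotated exon, over the control mice. Akt1 was at 263 ± 29.6 and Akt2 at 237 ± 5.95 per kilobase (SD, n = 4), and they changed places in 1 control mouse and in 3 AF1 mice, so their order was not separated. Insr followed at 175 ± 19.6, above the next gene in all 8 mice. Pik3r1 was at 126 ± 6.51 and Ptpn1 at 103 ± 8.52, in this order in 4 of 4 controls and 2 of 4 AF1 mice. Gsk3b, at 58.3 ± 6.08, and Pik3ca, at 57.2 ± 7.48, were not separated in the controls, and Pik3ca was the higher in 4 of 4 AF1 mice. The 2 adaptors were almost level, Irs2 at 29.8 ± 2.18 and Irs1 at 29.1 ± 4.32, with Irs2 above Irs1 in 2 of 4 controls and in 4 of 4 AF1 mice. Pik3ca stayed above Irs2 in 4 of 4 controls and 3 of 4 AF1 mice. Pdpk1 was last at 12.1 ± 2.03. With the length of the longest transcript in place of all exons, a choice made after seeing the data, the order of the control means was the same, but Gsk3b was above Pik3ca in 3 of 4 AF1 mice. The adaptors thus stood well below both the receptor above them and the AKT kinases beneath them in the pathway.

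The remaining genes of the pathway were listed by role, 112 in all, of which 109 were tested. At an unadjusted p of 0.05, 2 rose and 5 fell, where 3.16% and 3.03% of all genes did, and none passed after adjustment (adjusted p = 0.763 for each of the 7 by limma). Their median log2 fold change was -0.042, beside -0.0083 for all genes. The share that passed was therefore close to that of all genes tested. Without AF1 replicate 1, 4 were higher and 10 lower at the same threshold, where 10.1% of all genes passed and 5.48% passed as lower. Of the genes named by role, Pik3c3, Ptpn11, Rps6kb2, Tsc2 and G6pc passed without this mouse but not with it (unadjusted limma p of 0.0219, 0.0167, 0.0127, 0.0490 and 0.0430), and Gab1 and Prkaa2 no longer passed (0.0613 and 0.0624). Of the 8 fits that each lacked a single mouse, the call held in 8 for Foxo1, 5 for Fasn, 4 for Ppp2ca, 2 each for Crk, Grb10 and Prkaa2, and 1 for Gab1. Leaving out AF1 replicate 3 brought Pik3c2g, Tbc1d1, Ppargc1a, Acaca and Pnpla3 past the threshold (unadjusted limma p of 0.0273, 0.0120, 0.0206, 0.0136 and 0.0432), and leaving out AF1 replicate 2 did so for Tsc2 (0.0459). Leaving out control replicate 3 did so for Ide, Rps6kb2 and Pik3c3 (0.0421, 0.0172 and 0.0396), control replicate 1 for Pik3c3 (0.0224) and control replicate 2 for Sesn3 (0.0465).

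Among 16 tested receptor adaptors and receptor partners, 1 rose and 1 fell. Gab1, a docking protein that also recruits phosphoinositide 3-kinase, was at 213, 240.3, 188 and 278 in the controls and 281, 268, 290.0 and 280.1 in the AF1 mice, with a log2 difference of 0.30 (SE 0.13, unadjusted p = 0.0482). Crk, an SH2 and SH3 adaptor, was at 617, 679, 555 and 676 in the controls and 589.8, 499, 476 and 538 in the AF1 mice, with 3 AF1 mice below every control (log2 difference -0.26, unadjusted p = 0.0353). Ide, which degrades insulin, had means of 1809 ± 266 and 1569.6 ± 102 and did not pass (log2 difference -0.20, unadjusted p = 0.117).

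Of 17 other isoforms and regulators of phosphoinositide 3-kinase, PDPK1 and AKT, none passed in the limma fit of all 8 mice. The nearest was Pik3c3, the class III kinase of autophagy, with a log2 difference of -0.60 (unadjusted p = 0.0570), and 1 control at 1673 against 606 to 848 in the other 3 stood apart. Without that mouse the difference was -0.29. On the recovered reads, Pik3c3 did pass, with an unadjusted p of 0.0355 by edgeR and 0.0175 by DESeq2. Mlst8, a subunit of the mTOR complexes, one of which phosphorylates AKT, was lower in each AF1 mouse than in each control, at 87.7, 76.7, 76.6 and 83.6 against 98.9, 100.4, 98.4 and 93.0 (log2 difference -0.27, unadjusted p = 0.0736). The unadjusted limma p of Mlst8 was 0.0226 without the variance trend and 0.00249 with its own variance. It did not pass by edgeR (0.0894) or DESeq2 (0.132). Pik3c2g, a class II kinase of liver, had a log2 difference of 0.27 (unadjusted p = 0.0734).

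Of 22 negative regulators, none rose and 2 fell. Ppp2ca, the catalytic subunit of the phosphatase that dephosphorylates AKT, was at 2176, 2403, 1980.3 and 2123 in the controls and at 1977, 1894, 1417 and 1897 in the AF1 mice, with no overlap (log2 difference -0.28, SE 0.12, unadjusted p = 0.0422). Grb10, an adaptor that inhibits the receptor, was at 112, 127, 101 and 109 in the controls and 92.4, 51.1, 108 and 76.2 in the AF1 mice (log2 difference -0.49, unadjusted p = 0.0482). Ptpn11, a phosphatase that binds IRS proteins, also had groups that did not overlap, at 822, 874, 804 and 819.9 in the controls and 803, 679, 616 and 759 in the AF1 mice, but did not pass (log2 difference -0.22, unadjusted p = 0.0548). The unadjusted limma p of Ptpn11 was 0.0486 with TMM factors, 0.0430 with equal totals without mitochondrial genes and 0.0450 with its own variance. By edgeR it was 0.0576 and by DESeq2 0.0722. The median of the 22 genes was -0.020.

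Of 16 kinases that act on IRS proteins, 1 fell. Prkaa2, the catalytic α2 subunit of AMP-activated kinase, was at 454, 489, 439.9 and 507 in the controls and 382, 431, 306 and 441 in the AF1 mice (log2 difference -0.29, unadjusted p = 0.0491). Rps6kb2, an S6 kinase, had a log2 difference of 0.27 (unadjusted p = 0.0585) and did not pass.

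Of 22 AKT substrates and downstream effectors, 1 rose, and it was the gene of the pathway with the smallest p. Foxo1, the transcription factor that AKT keeps out of the nucleus, was at 525, 502, 485 and 509 normalized counts in the controls and at 932, 658, 659.8 and 608 in the AF1 mice. Every AF1 mouse was above every control, with replicate 1 far above the rest. The means were 505 ± 16.4 and 714 ± 147 (SD, n = 4), a log2 difference of 0.48 (SE 0.13, unadjusted p = 0.00465, adjusted p = 0.763 by limma). Without replicate 1 the difference was 0.34 (unadjusted p = 0.00357). When libraries were scaled to equal totals, the difference was 0.39 with an unadjusted p of 0.0686. With mitochondrial genes left out of the totals the difference was 0.48, and with TMM factors it was 0.47. On the recovered reads, edgeR and DESeq2 each gave 0.50. Foxo1 was called in each of these alternatives except equal totals. Tsc2, which restrains mTOR complex signalling until AKT phosphorylates it, was also higher in each AF1 mouse, at 1347, 1300.4, 1511 and 1391 against 1193, 1276, 1229 and 1159.9, but did not pass by limma (log2 difference 0.19, unadjusted p = 0.0518, against 0.0436 by DESeq2). The unadjusted limma p of Tsc2 was 0.0133 with its own variance and 0.488 with equal totals. Tbc1d1, a Rab GTPase-activating substrate of AKT, had a log2 difference of -0.31 (unadjusted p = 0.0521).

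**Figure D4:**
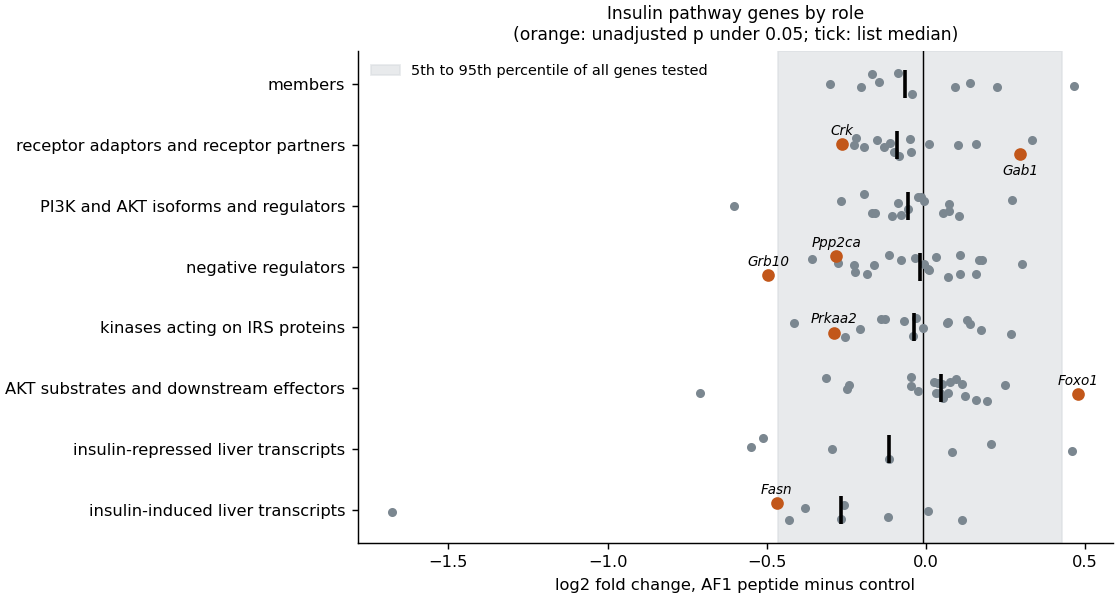
Log2 fold change, AF1 peptide minus control (x axis), of the 10 genes and of the other pathway genes tested, by role (y axis). Orange points passed an unadjusted p of 0.05, black ticks are list medians, the line is the median of all genes and the shaded band is the 5th to 95th percentile of all genes tested, -0.46 to 0.43. Of the 7 genes that passed, Foxo1 at 0.48, Grb10 at -0.49 and Fasn at -0.47 lie outside the band.

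The transcripts that insulin is known to repress or induce in liver lie at the end of the pathway. Of 7 that insulin represses, none passed in the limma fit of all 8 mice. Igfbp1 was at 404, 295, 494 and 367 in the controls and at 1180.5, 119, 545 and 204 in the AF1 mice and thus spread more widely there (log2 difference -0.12, unadjusted p = 0.844, and -0.69 without replicate 1). Pck1, the gluconeogenic enzyme PEPCK, was at 47452, 36742, 36108 and 33217 in the controls and 77425, 45539, 20589 and 36268 in the AF1 mice (log2 difference 0.08, and -0.23 without replicate 1), and G6pc, glucose-6-phosphatase, at 9263, 8440.4, 8089.9 and 4188 in the controls and 11661, 3216, 4794 and 6502 in the AF1 mice (log2 difference -0.30, unadjusted p = 0.441). Without replicate 1, the G6pc difference was -0.63 with an unadjusted p of 0.0430. For all 3 genes, the highest of the 8 mice was AF1 replicate 1, the mouse that was also highest for Irs1, Irs2 and Foxo1. Ppargc1a, a coactivator of gluconeogenic genes, was highest there as well, at 324 against 94.7 to 205 in the other AF1 mice, and Pdk4, a kinase that inhibits pyruvate dehydrogenase, was lowest there, at 65.3 against 190 to 296. Their log2 differences, 0.46 and -0.55 in all mice, were 0.15 and -0.07 without it. Sesn3, a FOXO target, had a log2 difference of -0.51 (unadjusted p = 0.0636).

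Of 9 transcripts that insulin induces, 1 fell. Fasn, fatty acid synthase, was at 42323, 44932, 41616 and 39709 in the controls and at 20625, 34726, 32875 and 36334 in the AF1 mice, with no overlap (log2 difference -0.47, SE 0.19, unadjusted p = 0.0338, and -0.28 without replicate 1). Acaca, the enzyme before it, had a log2 difference of -0.38 (unadjusted p = 0.107), which was -0.15 without replicate 1, and Pnpla3, a lipase of lipid droplets, one of -1.68 (unadjusted p = 0.115) that was -0.47 without replicate 1, where Pnpla3 was at 15.9 against 322 to 1090 in the controls. Srebf1, the lipogenic transcription factor SREBP-1, was at 8144, 4910.0, 7464 and 7484 in the controls and 8938, 5673, 5926 and 5354 in the AF1 mice (log2 difference -0.12, and -0.28 without replicate 1). For Fasn, AF1 replicates 2 to 4 also lay below every control, at 32875 to 36334, and without replicate 1 its unadjusted limma p was 0.0497. The sizes of these differences changed without AF1 replicate 1. That library also had the lowest mitochondrial share and hepatocyte, Kupffer, stellate, biliary and blood cell marker sums. The part of those properties in these values was not tested.

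**Figure D5:**
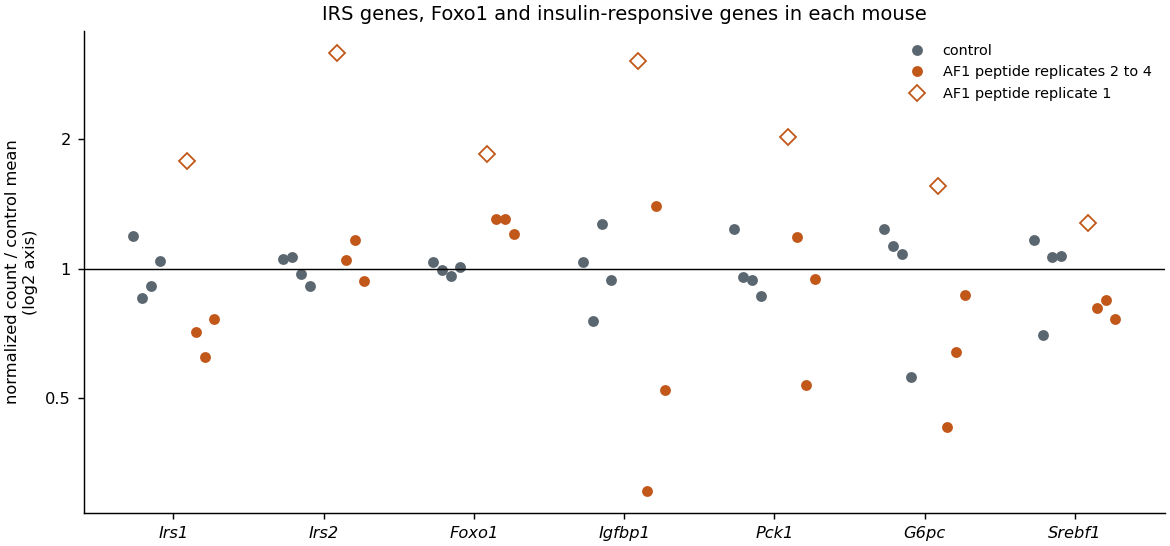
Normalized counts of Irs1, Irs2, Foxo1 and 4 insulin-responsive genes in each mouse, divided by the control mean of the gene (log2 y axis). Circles are mice and the open diamond is AF1 peptide replicate 1, which was at 1.78 times the control mean for Irs1, 3.16 for Irs2 and 3.03 for Igfbp1.

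Among 12443 genes with a mean of at least 50 normalized counts, the genes whose log2 levels over the 8 mice were most like those of Irs1 were Sgsm2 (Pearson r 0.980), Rpap3 (0.979), Eola1 (0.979), Gm40616 (0.964) and Irf2bp1 (0.964). Without AF1 replicate 1 their r was between 0.905 and 0.958 over 7 mice, which are among the 8 they were picked on. For Irs2 they were Rasgef1b (0.992), Gm42004 (0.988), Shroom1 (0.980), Gm14399 (0.979) and Sult1a1 (0.978). Over 7 mice their r ranged from 0.135 for Sult1a1 to 0.923 for Gm42004, and for each of them the likeness to Irs2 was lower without the 1 high mouse. Sult1a1, a sulfotransferase, was at 30253 in AF1 replicate 1 against 9785 to 11092 in the controls. These are descriptions over mice of both groups, with library and depth in common.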

How the data were processed

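RNA-Seq of poly(A) RNA was performed on livers of 4 control and 4 AF1 peptide db/db mice with a stranded kit. Per the labels and the study's methods, the authors trimmed reads with Trim Galore 0.6.7, aligned them to mm39 with HISAT2, sorted alignments with SAMtools 1.17 and counted reads per gene with GenomicAlignments. The values deposited by the authors are a signal, namely normalized counts, equal to reads divided by a size factor of 0.548 to 1.21 per library. Dividing out these factors gave whole reads for 100.0% of 172256 values (tolerance 0.01 read). Depth was 23031880 to 45117528 reads per library, and intervals and errors cover these mice only. No 2 libraries of a group agreed within sampling noise.

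Log2(normalized count + 1) of 15989 genes with a mean of at least 10 was fitted with limma 3.58.1 (trended moderated variance, group as the only term) in R 4.3.3. Genes were called at an unadjusted p of 0.05, the study's threshold, with Benjamini-Hochberg values over all genes beside it. Fold changes are on the log2(value + 1) scale. Ratios were compared by exact permutation tests (SciPy 1.17.1). Alternatives were other scalings, filters and pseudocounts, leaving out each mouse, and, from the recovered reads, DESeq2 1.42.0 and edgeR 4.0.16. The limma fit was tested on simulated counts that held no outlying library, and the other steps were not tested in this way. The labels gave replicate numbers but no sign that these pair mice across groups, and the groups come from the labels. The members and gene lists were chosen with earlier results of these data known. Genes named were all 10 members, up to 3 of each list with the smallest p, and Igfbp1, Pck1, G6pc and Srebf1, and 2 further genes that this rule gives are not reported here. Exon lengths and overlaps are from GENCODE on GRCm38, not the build of the counts, so no gene positions of the counts are given.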

Additional observations from a re-analysis of the deposited data

Results flagged for a closer look

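A sample was singled out where its gap to the nearest mouse of its group, divided by the whole range of the group, passed the 95% critical value of Dixon's test for 4 values. Of 76 groups of 4 mice, 10 passed, where about 1 in 20, or 3.8, would pass by chance. In 5 of the 10 the mouse was AF1 peptide replicate 1: it was highest for Irs1 (474 normalized counts, ratio 0.879), Irs2 (596, ratio 0.896), Pdpk1 (136, ratio 0.923), Foxo1 (932, ratio 0.840) and Srebf1 (8938, ratio 0.840). The other 5 were spread over mice. AF1 replicate 2 was highest for Insr (2818, ratio 0.847), AF1 replicate 3 was highest for Pik3ca (709, ratio 0.831) and lowest for Ppp2ca (1417, ratio 0.851), control replicate 4 was highest for Tbc1d1 (248, ratio 0.854), and control replicate 3 was highest for Pdk4 (297, ratio 0.847).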

How the results depend on the processing

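The log2 differences of the 10 members kept their direction and their side of the threshold in 194 of 200 recomputed values. The exceptions were Irs1 and Pdpk1 without AF1 replicate 1, Pik3ca without control replicate 3 and Akt2 with its own variance, which then passed an unadjusted p of 0.05, and Akt1, which ranged from -0.10 to 0.022 when single mice were left out. The count of members called was 1 with each gene's own variance and 0 to 2 when single mice were left out. No member was separated between the groups under equal totals, with (0) or without (0) mitochondrial genes. Over all genes, 990 were called (506 higher, 484 lower): 590 when a fold over 1.3 was also required (286 higher, 304 lower), 0 at an adjusted p of 0.05 by limma or edgeR and 3 by DESeq2, and 129 higher and 769 lower under equal totals, where the median of all genes shifted to -0.099. Equal totals without mitochondrial genes gave 438 higher and 467 lower, and TMM factors gave 477 higher and 527 lower. Leaving out single mice gave 540 (without control replicate 2) to 1608 (without AF1 replicate 1), with 285 to 732 higher and 255 to 876 lower.

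The 7 other pathway genes called became 4 without the trend, 3 with the fold requirement and 0 at an adjusted p of 0.05. Of these, the number higher, 2, became 1 without the filter, with TMM factors, with equal totals without mitochondrial genes, without the trend, with edgeR and with the fold requirement, and 0 with equal totals and at an adjusted p. The number lower, 5, became 3 without the trend, 2 with the fold requirement and 0 at an adjusted p. Leaving out single mice gave 2 to 14 (1 to 4 higher, 1 to 10 lower). The difference of Igfbp1 was 0.41 with edgeR and 0.39 with DESeq2 and -0.69 to 0.41 over left-out mice, and that of Pck1 -0.0082 with equal totals and -0.23 to 0.41. The ratios stayed in direction: Irs1 to Irs2 -0.75 to -0.55, Pik3r1 to Pik3ca -0.52 to -0.34, Akt1 to Akt2 -0.25 to -0.12 and Insr to Ptpn1 0.13 to 0.33. The causes were not tested.

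With a replicate block, 0 members, 8 other pathway genes and 1244 genes were called. Deviations of same-numbered mice had correlations of -0.064 to 0.235 (mean 0.103), against -0.272 to 0.137 for other combinations. Of 8 samples, 4 correlated best with their own number, which does not settle whether the numbers pair mice. As the labels gave no sign of pairing, the numbers were not taken as pairs. Of the 10 members, depth limits Pdpk1 most, at 54 reads in AF1 replicate 2. Of the other genes named by role, the fewest reads in a mouse were 10 for Sesn3, 17 for Pnpla3, 28 for Grb10 and 42 for Mlst8.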
